A study of Mus musculus with 6 samples.

Results

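The proteasome genes of hypoxic primary neonatal mouse cardiomyocytes (NMCMs) were compared between 3 HO + Vehicle libraries (V1 to V3) and 3 HO + β-SITO libraries (T4 to T6). They were taken as the protein-coding genes of the count table whose symbols begin with Psma, Psmb, Psmc, Psmd, Psme, Psmf or Psmg followed by a digit, which gave 51 of 57010 genes. Cells of both groups came from C57BL/6 pups, were separated from fibroblasts by differential adhesion and were kept under hypoxia (HO). One group received vehicle and the other β-sitosterol (β-SITO), a plant sterol. The dose of β-SITO and the hours of hypoxia for these libraries were not given in the sources used here, and no normoxic library was analysed. Nothing in the labels says whether the 3 libraries of a group came from separate cultures or animals, so the tests measure the spread between these libraries, which may be technical.

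The 26S proteasome is the main protease of the cytosol and nucleus and degrades proteins that carry ubiquitin. Its 20S core is a barrel of outer rings of α subunits, which gate the pore, and inner rings of β subunits, of which β1, β2 and β5 carry the active sites (Psmb6, Psmb7 and Psmb5). The 19S cap recognizes and unfolds ubiquitinated substrates. Under interferon-γ, cells build the immunoproteasome, in which Psmb9, Psmb10 and Psmb8 take the places of Psmb6, Psmb7 and Psmb5, and the PA28 activator of Psme1 and Psme2 caps the core. Peptides from it feed the MHC class I pathway. Cardiomyocytes rely on the constitutive form for turnover of contractile proteins.

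Of the 51 genes, 50 had enough counts to be tested, and 44 of them were lower and 0 higher with β-SITO at an edgeR adjusted p under 0.05. Among all 14799 genes tested, 33.8% were lower and 33.0% higher, and the median log2 fold change (HO + β-SITO minus HO + Vehicle, as throughout) was -0.01. For the tested proteasome genes the median was -0.82. No fold change among them was above zero, 0 were higher at an unadjusted p under 0.05, and DESeq2 and limma-voom also called 0 higher. DEGs, which in addition had to differ by more than 2-fold, numbered 16, all lower, against a background of 10.1% lower and 12.8% higher. In 45 of the 50, Psmg3 among them although it was not called, every HO + β-SITO library was below every HO + Vehicle library, which held for 35.8% of all genes tested. Psmb11, the β subunit of thymic cortical epithelium, had 0 counts in all 6 libraries and was not tested. Values are given as CPM, counts scaled to a common library size by TMM normalization.

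**Figure D1:**
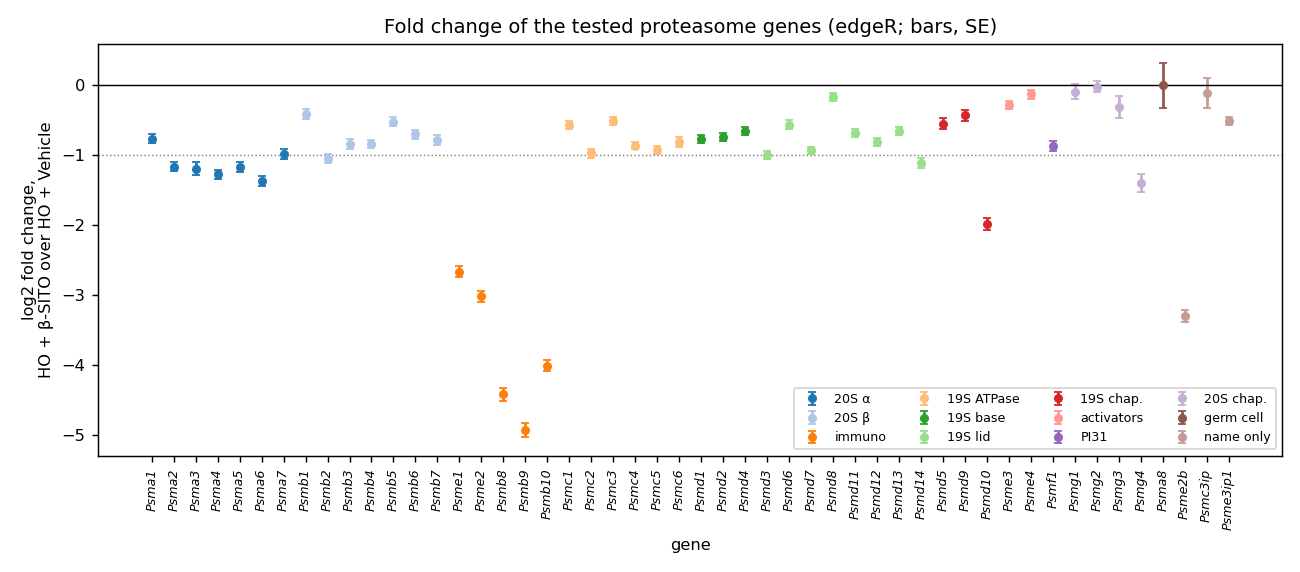
Log2 fold change (y axis, HO + β-SITO over HO + Vehicle) of the 50 tested proteasome genes (x axis), coloured by group, with bars for the SE and a dotted line at a 2-fold decrease. The 5 immuno genes lie between -4.93 and -2.67, and the α, β and 19S subunits between -1.38 and -0.18.

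The immunoproteasome genes had the largest decreases of the groups. All 5 fell by more than 2-fold, from -4.93 to -2.67 on the log2 scale around a median of -4.01, and their summed level fell to 9.63% of its level with vehicle. Psmb9, the immuno form of β1, had 120.8, 142.4 and 122.6 CPM in V1 to V3 and 4.57, 4.22 and 3.85 CPM in T4 to T6. The counts behind these values were 1913 to 2271 in V1 to V3 and 74 to 89 in T4 to T6. Every HO + β-SITO library was far below every HO + Vehicle library, with a log2 fold change of -4.93 (SE 0.0986, edgeR adjusted p = 1.18e-15). Psmb8, the immuno form of β5, had 261.8, 301.8 and 262.4 CPM in V1 to V3 and 14.3, 12.1 and 12 CPM in T4 to T6. Its decrease was the next in size, a log2 fold change of -4.42 (SE 0.0877), and the group means were 275.3 ± 22.9 CPM with vehicle and 12.8 ± 1.29 CPM with β-SITO (mean ± SD, n = 3 each).

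Psmb10, the immuno form of β2, had 321.1, 358.8 and 310.8 CPM in the HO + Vehicle libraries against 21, 20.7 and 19.8 CPM in those given β-SITO. Per kilobase of transcript it stood at 251.9 CPM per kb with vehicle, above Psmb8 at 169.1 and Psmb9 at 95.1. The groups were again apart, with a log2 fold change of -4.01 (SE 0.0747, edgeR adjusted p = 6.42e-16). The PA28 genes fell less. Psme1, PA28α, had 362.2, 432.7 and 375 CPM in V1 to V3 and 58.9, 61.7 and 63.7 CPM in T4 to T6, and Psme2, PA28β, had 319.4, 376.9 and 339.4 CPM in V1 to V3 and 45.1, 40 and 42.3 CPM in T4 to T6. PA28α and PA28β form 1 ring together, and their log2 fold changes were -2.67 (SE 0.0747) and -3.02 (SE 0.0755). Per kilobase their levels were 350.7 and 358.9 CPM per kb with vehicle and 55.3 and 44.1 CPM per kb with β-SITO.

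Some cell type markers differed between the groups as well, beside 33.8% of all genes tested lower and 33.0% higher. Cardiomyocyte markers were detected in all libraries (12 of 12 tested). They were mixed, 2 lower and 5 higher, which is not far from the shares of all genes. Their summed level was 5916 to 6943 CPM in V1 to V3 and 5387 to 9181 CPM in T4 to T6. Within the HO + β-SITO group each of these markers was lowest in T4. Nppa, for example, had 647.8 CPM in T4, 1410 CPM in T5 and 1469 CPM in T6. Fibroblast markers were also abundant in these libraries labelled as cardiomyocytes (29833 to 31113 against 44413 to 45501 CPM, 2 of 8 lower and 5 higher). Most of this sum is Col1a1, Col1a2 and Col3a1, with means of 9100, 6800 and 10422 CPM with vehicle. With β-SITO their means were 12197, 10215 and 18850 CPM. Of the other markers, Lum and Tcf21 were higher and Pdgfra was not called. Dcn (1907 and 1332 CPM) and Postn (1152 and 990 CPM) were lower. Macrophage markers were mixed, 2 of 10 lower and 7 higher, with summed levels of 1291 to 1417 and 2654 to 3253 CPM. Lyz2 (means of 647 and 1408 CPM) and Mrc1 (11.8 and 325.2 CPM) rose most in CPM. Fcgr1 (115.9 and 25.6 CPM) and Cd14 (93.2 and 31.7 CPM) were the lower ones, and Adgre1 was not called. Of the endothelial markers 8 of 8 were higher (201.3 to 229.1 against 785.3 to 814.2 CPM), and of the smooth muscle markers 4 of 4 (546.5 to 589.5 against 1062 to 1243 CPM). The smooth muscle sum is nearly all Acta2, with means of 561.7 CPM with vehicle and 1114 CPM with β-SITO. Tagln (2.19 and 4.1 CPM) and Cnn1 (0.877 and 6.03 CPM) were low. Lymphocyte markers summed to 0.31 to 0.439 CPM in V1 to V3 and 0 to 0.156 CPM in T4 to T6, with Cd3e and Cd3d at 0 in all libraries. Neutrophil markers summed to 14.7 to 16 and 3.32 to 5.55 CPM, with Ly6g at 0. Of these 4 markers only Csf3r was tested and it was lower (14.6 against 3.42 CPM), while S100a8 was at 0.397 and 0.401 CPM and S100a9 at 0.375 and 0.453 CPM (means). The part of these shifts in the proteasome results was not tested, and in bulk RNA fewer cells of a type and less RNA per cell cannot be told apart.

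Since each catalytic immuno subunit replaces a constitutive one, their ratio within a library needs no scaling between libraries. The ratio of Psmb8 to Psmb5 counts was 3.11, 3.22 and 3.08 in V1 to V3 and 0.228, 0.204 and 0.2 in T4 to T6. Counts of the immuno form exceeded those of the constitutive one in V1 to V3 and were below them in T4 to T6. The log2 ratio differed by -3.90, which is 14.9-fold. For Psmb10 to Psmb7 the ratio went from 3.31, 3.48 and 3.17 to 0.391, 0.37 and 0.319, a log2 difference of -3.21 or 9.24-fold. Psmb9 was below Psmb6 already with vehicle, with ratios of 0.744, 0.774 and 0.747, against 0.0452, 0.0403 and 0.036 with β-SITO. That was the widest gap of the 3 pairs, a log2 difference of -4.22 or 18.6-fold. For each pair the 2-sided exact permutation test over libraries gave p = 0.1, which is the smallest value 3 libraries against 3 allow, and 0.1 after Benjamini-Hochberg adjustment over the 3 pairs.

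**Figure D2:**
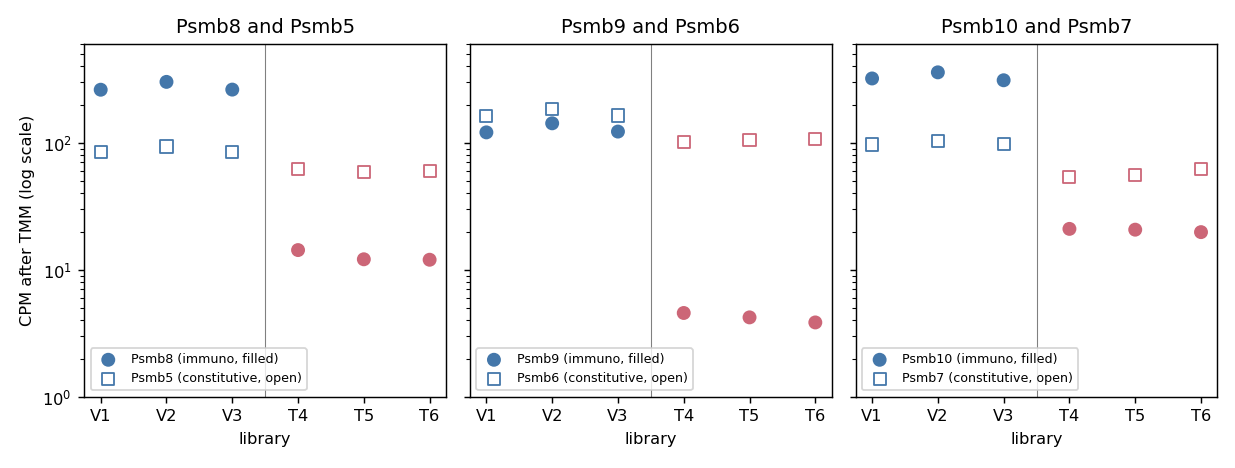
Level in CPM (y axis, log scale) of each catalytic immuno gene (filled circles) and its constitutive counterpart (open squares) in the HO + Vehicle libraries V1 to V3 (blue) and the HO + β-SITO libraries T4 to T6 (red). Psmb8 and Psmb10 lie above their counterparts in V1 to V3 and below them in T4 to T6, and Psmb9 is below Psmb6 in all 6 libraries.

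The constitutive partners fell by much less than the immuno forms. Psmb5 had 84.2, 93.6 and 85.2 CPM in V1 to V3 and 62.6, 59.2 and 60.2 CPM in T4 to T6, with a log2 fold change of -0.53 (SE 0.0629, edgeR adjusted p = 2.33e-06). Psmb6 had 162.4, 184 and 164.2 CPM in V1 to V3 and 101.1, 104.5 and 107.1 CPM in T4 to T6, and Psmb7 had 97, 103.1 and 98 CPM in V1 to V3 and 53.6, 56 and 62.2 CPM in T4 to T6. All 3 were separated between the groups, with log2 fold changes of -0.71 (SE 0.0628) for Psmb6 and -0.79 (SE 0.0666) for Psmb7. Expressed per kilobase of the principal transcript, Psmb8 made up 63.2%, 64% and 63% of the pair with Psmb5 in V1 to V3 and 11.2%, 10.1% and 9.93% in T4 to T6. Psmb9 made up 30.5%, 31.4% and 30.6% of its pair and then 2.6%, 2.32% and 2.08%. Psmb10 made up 74.6%, 75.5% and 73.7% and then 25.7%, 24.7% and 22%, the highest remaining share of the 3. These shares depend on the length used. With the union of all exons, Psmb10 held 86.4% to 87.5% and 39% to 44%, and Psmb8 held 45% to 46.2%, which is below its counterpart, and 5.04% to 5.72%. The change of the ratio does not depend on the length.

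**Figure D3:**
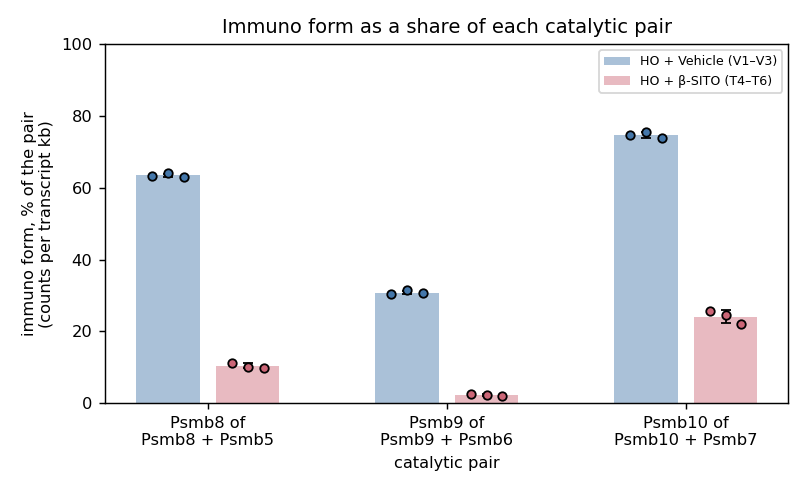
Immuno form as a percentage of each catalytic pair (y axis, counts per kilobase of transcript), for the 3 pairs (x axis). Bars are means, error bars the SD and points the 3 libraries of a group. Shares with vehicle were 63% to 64%, 30.5% to 31.4% and 73.7% to 75.5%, and with β-SITO 9.93% to 11.2%, 2.08% to 2.6% and 22% to 25.7%.

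The sequences before the starts of these genes were read from RefSeq promoter windows (GRCm38.p6), which matched 43 of the 51 genes. The genes of the pairs Psmb8 with Psmb5 and Psmb9 with Psmb6 are shown because the immuno and constitutive forms differed most there, and the 250 bases before each start are written 5′ to 3′ on the gene's strand. Capitals mark matches, on either strand, to 5 motifs: the interferon-stimulated response element core (GAAANNGAA), the GAS element (TTCNNNGAA), the kappaB site, the antioxidant response element that CNC factors such as Nfe2l1 bind (TGACNNNGC) and the CCAAT box (CCAAT).
Psmb8 (chr17:34197945-34198194, plus strand): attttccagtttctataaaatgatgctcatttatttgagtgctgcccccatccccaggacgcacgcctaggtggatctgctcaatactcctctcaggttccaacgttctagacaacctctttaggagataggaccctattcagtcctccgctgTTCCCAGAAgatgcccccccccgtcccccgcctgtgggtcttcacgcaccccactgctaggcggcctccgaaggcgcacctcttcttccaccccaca
Psmb5 (chr14:54617996-54618245, minus strand): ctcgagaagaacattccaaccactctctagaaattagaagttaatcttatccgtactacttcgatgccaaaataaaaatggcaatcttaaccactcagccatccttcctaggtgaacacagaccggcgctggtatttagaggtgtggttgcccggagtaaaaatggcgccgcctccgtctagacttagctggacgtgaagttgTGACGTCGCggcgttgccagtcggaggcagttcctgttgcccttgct
Psmb9 (chr17:34187331-34187580, minus strand): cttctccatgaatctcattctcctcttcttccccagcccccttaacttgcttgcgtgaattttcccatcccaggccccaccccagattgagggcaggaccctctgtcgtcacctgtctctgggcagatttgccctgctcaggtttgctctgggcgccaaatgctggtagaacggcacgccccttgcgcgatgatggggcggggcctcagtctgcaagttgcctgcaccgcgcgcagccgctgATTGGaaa
Psmb6 (chr11:70525107-70525356, plus strand): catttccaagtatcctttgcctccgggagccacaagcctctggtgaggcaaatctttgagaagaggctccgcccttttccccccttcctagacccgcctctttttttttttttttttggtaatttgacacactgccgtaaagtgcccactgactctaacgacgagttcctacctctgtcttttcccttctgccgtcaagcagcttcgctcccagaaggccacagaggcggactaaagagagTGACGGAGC

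In Psmb8 the capitals are a GAS match 97 to 89 bases before the start, and in Psmb9 a CCAAT match on the opposite strand 8 to 4 bases before it. In Psmb5 and Psmb6 they are matches to the antioxidant response element, 47 to 39 and 9 to 1 bases before the start. Among the 6 windows of the 5 immuno genes, 0 held the interferon-stimulated core, 1 a GAS match, 0 a kappaB site, 0 an antioxidant response element and 1 a CCAAT box. These motifs occurred in 7.13%, 7.02%, 7.25%, 10.2% and 33.8% of all 32851 windows of the same length. The antioxidant response element was also matched before Psmc6 and Psmd12 (2 of 15 windows of the 19S, 13.3%). The CCAAT box was found in 5 of 8 windows of the α subunits (Psma1, Psma2, Psma3, Psma6 and Psma7). It was found in 1 of 4 windows of the β subunits and 4 of 15 of the 19S. The interferon-stimulated core was found before the constitutive genes Psmb3 (1 of 4 β windows) and Psmd4 (1 of 15 windows of the 19S). KappaB sites were found before Psma6 and Psma7 (2 of 8 α windows) and before Psmd11, Psmd12 and Psmd13 (3 of 15). The matches are letters in a window of 250 bases, and no binding was measured.

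The 7 α subunits of the constitutive core were all lower and 5 of them were DEGs, and their median log2 fold change was -1.18. Psma6, α1, changed most. It had 236.8, 275 and 281.2 CPM in V1 to V3 and 99.1, 104.6 and 100.5 CPM in T4 to T6, with a log2 fold change of -1.38 (SE 0.0692, edgeR adjusted p = 8.35e-11). Psma4, α3, whose N-terminus closes the gate of the barrel, had 161.5, 191 and 187.6 CPM in V1 to V3 and 74.3, 73.3 and 74.6 CPM in T4 to T6. Psma3, α7, had 92.2, 110.1 and 115.7 CPM in V1 to V3 and 51.8, 45.2 and 41.7 CPM in T4 to T6. In both the lowest HO + Vehicle library was well above the highest HO + β-SITO library, and the log2 fold changes were -1.28 (SE 0.0682) and -1.20 (SE 0.0909).

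Psma2, α2, had 181.3, 206.6 and 198.8 CPM in V1 to V3 and 88.6, 87.9 and 85 CPM in T4 to T6, and Psma5, α5, had 139.5, 167.4 and 154 CPM in V1 to V3 and 69.8, 68.1 and 65.9 CPM in T4 to T6. Their decreases were of nearly the same size, -1.17 (SE 0.0623) and -1.18 (SE 0.0693). Psma1, α6, had the smallest decrease of the α ring, with 104.6, 124.9 and 116 CPM in V1 to V3 and 66.9, 67.5 and 68.8 CPM in T4 to T6 and a log2 fold change of -0.77 (SE 0.0679). Psma7, α4, lay just inside 2-fold at -0.99 (SE 0.0649). The ring as a whole ranged from -1.38 to -0.77. Psma8, the α4 form of germ cells, had 0.821, 0.627 and 0.806 CPM in V1 to V3 and 0.822, 0.787 and 0.625 CPM in T4 to T6 and did not pass the test (-0.01, SE 0.322).

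Of the 7 constitutive β subunits all were lower and 1, Psmb2, was a DEG, and the median log2 fold change was -0.79. Psmb2, β4, had 139, 155.7 and 141.8 CPM in V1 to V3 and 69.8, 66.2 and 72.7 CPM in T4 to T6, with a log2 fold change of -1.06 (SE 0.0641, edgeR adjusted p = 8.16e-10). Psmb1, β6, changed least, with 162.4, 198.2 and 175.4 CPM in V1 to V3 and 138.3, 135.2 and 128.1 CPM in T4 to T6 and a log2 fold change of -0.42 (SE 0.071). The groups did not overlap for either of these non-catalytic subunits. Psmb3 and Psmb4, which are also without an active site, both stood at -0.85. The ranges of the α ring (-1.38 to -0.77) and of the β ring (-1.06 to -0.42) overlapped, so the difference between their medians is a description of the rings and not of each subunit. Although α and β subunits enter the core in equal number, their levels per kilobase differed. With vehicle they ran from 37.2 CPM per kb for Psma3 to 253.7 for Psma6, and with β-SITO these genes had 16.2 and 97.3. These levels depend on the transcript length used, 2846 bp for Psma3 and 1042 bp for Psma6. Before division by length, the vehicle means were 106 CPM for Psma3 and 264.3 CPM for Psma6.

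In the 19S cap all 17 subunits of its ATPase ring, base and lid passed the test as lower, around a median of -0.77 on the log2 scale. The 6 ATPases, which unfold the substrate, ranged from -0.52 to -0.98. Psmc2, Rpt1, had 158.2, 173.8 and 183.1 CPM in V1 to V3 and 87.2, 84.9 and 89.9 CPM in T4 to T6, and Psmc3, Rpt5, had 232.8, 245.8 and 233.5 CPM in V1 to V3 and 169.6, 160.5 and 167.5 CPM in T4 to T6. Both were separated between the groups. The base subunits Psmd1 and Psmd2, the scaffold, and Psmd4, a ubiquitin receptor, were close to each other at -0.77, -0.75 and -0.66. Psmd1 had 208.2, 203.9 and 217.2 CPM in V1 to V3 and 125.6, 118.6 and 126 CPM in T4 to T6, and Psmd4 had 166.4, 167.8 and 167.7 CPM in V1 to V3 and 102.7, 105.8 and 109.1 CPM in T4 to T6.

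In the lid, Psmd14, the deubiquitinase that removes ubiquitin chains from the substrate, fell most, with 101.1, 122.1 and 112.9 CPM in V1 to V3 and 54.4, 49.5 and 50.6 CPM in T4 to T6 and a log2 fold change of -1.12 (SE 0.0733, edgeR adjusted p = 2.24e-09). Psmd3, Rpn3, had 199.9, 192.3 and 183 CPM in V1 to V3 and 92.5, 97.5 and 97.5 CPM in T4 to T6, or 191.7 ± 8.43 CPM with vehicle and 95.8 ± 2.88 CPM with β-SITO (mean ± SD, n = 3 each), which lies just past 2-fold. These were the only 2 DEGs of the 17, and this count rests on values near 2-fold, since it was 1 with DESeq2 and 0 with library size alone or when tested against a 2-fold change by glmTreat. At the other end, Psmd8, Rpn12, had 209.5, 220.5 and 207.8 CPM in V1 to V3 and 193.2, 179 and 189.5 CPM in T4 to T6. Its groups did not overlap, but the difference was small (-0.18, SE 0.0574, edgeR adjusted p = 0.0108) and did not pass without T5 (-0.12, edgeR adjusted p = 0.144) or without T6 (-0.18, edgeR adjusted p = 0.0512). The other lid subunits lay between -0.94 (Psmd7) and -0.57 (Psmd6).

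Summed over their genes, the α subunits went from 1068, 1246 and 1203 CPM in V1 to V3 to 532.2, 523.1 and 515.9 CPM in T4 to T6, which is 44.7% of the vehicle mean. The β subunits went from 1027, 1180 and 1070 CPM to 654.5, 642.8 and 663.1 CPM (59.8%). The 19S subunits went from 3111, 3148 and 3174 CPM to 1937, 1863 and 1903 CPM (60.5%). The immuno genes went from 1385, 1612 and 1410 CPM to 143.8, 138.8 and 141.7 CPM. They held 18.9%, 20.2% and 18.5% of the CPM of all 51 genes in V1 to V3 and 3.89%, 3.86% and 3.88% in T4 to T6. These shares are not scaled to transcript length. In CPM per kb, the immuno genes summed to 1153 to 1345 in V1 to V3 and 123.5 to 128 in T4 to T6. All 51 genes summed to 5101 to 5680 and 2337 to 2404. The sums carry no test, as the decreases of their members were tested 1 by 1.

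**Figure D4:**
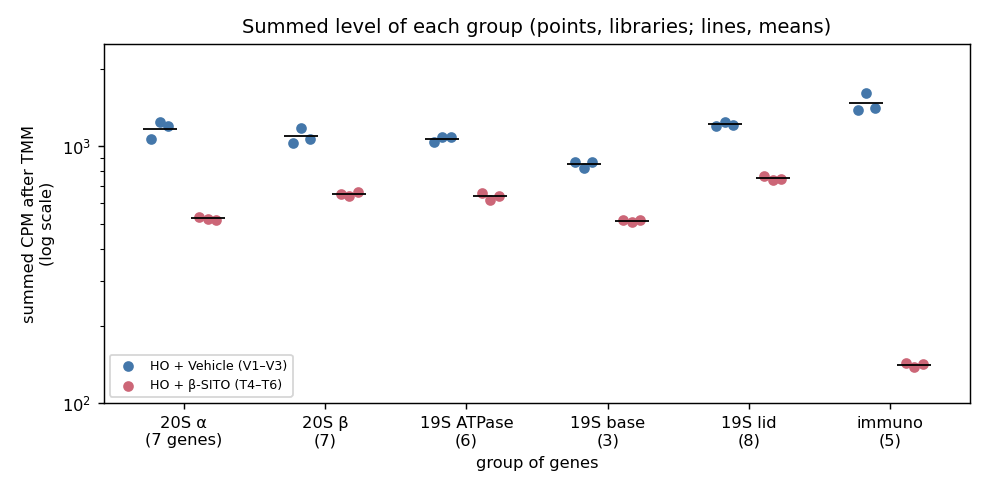
Summed CPM (y axis, log scale) of the genes of each group (x axis) in the HO + Vehicle (blue) and HO + β-SITO (red) libraries, with lines at the means. The mean of the immuno genes goes from 1469 to 141.4 CPM and that of the α subunits from 1173 to 523.7 CPM. Heights are not comparable between groups, since CPM is not scaled to transcript length.

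The genes that build the particle were less uniform. Psmd10 (gankyrin), a chaperone of the 19S base that also binds cell cycle regulators, had 61.1, 72.4 and 62 CPM in V1 to V3 and 17.6, 15.3 and 16.1 CPM in T4 to T6. Outside the immuno genes and Psme2b it had the largest decrease, a log2 fold change of -1.99 (SE 0.0859, edgeR adjusted p = 1.33e-11). The other base chaperones fell less, Psmd5 by a log2 fold change of -0.56 and Psmd9 by -0.44, the latter with 35, 35 and 34.2 CPM in V1 to V3 and 27.3, 23.7 and 25.7 CPM in T4 to T6. Of the 4 chaperones of the 20S core, only Psmg4 passed the test, with 10.2, 11.9 and 10.5 CPM in V1 to V3 and 4.47, 3.82 and 4.06 CPM in T4 to T6 and a log2 fold change of -1.40 (SE 0.13, edgeR adjusted p = 1.43e-07). Psmg1, Psmg2 and Psmg3 stood at -0.10 (SE 0.103), -0.03 (SE 0.0823) and -0.32 (SE 0.164). Psmg2 had 18.3, 19.9 and 18.4 CPM in V1 to V3 and 18.7, 18.9 and 17.8 CPM in T4 to T6, so its groups overlapped.

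Pomp, the maturation protein that the core digests as it closes, had 137.1, 179.1 and 164.5 CPM in the HO + Vehicle libraries against 71.5, 64.5 and 61.3 CPM in those given β-SITO. It is outside the symbol rule and was a DEG, with a log2 fold change of -1.28 (SE 0.0888, edgeR adjusted p = 4.31e-09).

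The activators that are not induced by interferon-γ lay much nearer to zero. Psme3, the nuclear PA28γ, had 124.6, 126.8 and 123.7 CPM in V1 to V3 and 104.3, 97.9 and 104.5 CPM in T4 to T6 and a small decrease (-0.29, SE 0.0562, edgeR adjusted p = 0.000306). Psme4, PA200, had 119.2, 117.2 and 122.7 CPM in V1 to V3 and 98.8, 118.5 and 109.1 CPM in T4 to T6 and did not pass the test (-0.14, SE 0.0673). The 3 PA28 genes therefore spanned -3.02 to -0.29, with the interferon-responsive pair at the low end. Psmf1, PI31, which binds the core and inhibits it in vitro, had 55.4, 57.7 and 61.6 CPM in V1 to V3 and 32.8, 30.7 and 31.6 CPM in T4 to T6 and a log2 fold change of -0.88 (SE 0.0683).

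A few genes bear the name without being established subunits. Psme2b fell with Psme2, from 169, 208 and 184.7 CPM to 18.9, 19.2 and 18.8 CPM (-3.30, SE 0.0816). Its transcript is 99.4% identical to that of Psme2 over 794 aligned bases, so how reads were split between them is uncertain. Psme3ip1, a partner of PA28γ, fell by a log2 fold change of -0.52, and Psmc3ip, a meiotic recombination factor, had 3.35, 3.39 and 2.6 CPM in V1 to V3 and 3.29, 2.14 and 3.12 CPM in T4 to T6 and did not pass the test. The pseudogene Psma5-ps, which is no member, stood at 10.6, 11.5 and 10.5 CPM against 5.19, 4.5 and 4.95 CPM, and how reads were split between it and Psma5 is uncertain.

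Beyond the symbol rule, 46 genes around the proteasome were followed, of which 45 were tested, 35 lower and 1 higher. Among all genes tested, 33.8% were lower and 33.0% higher. Nfe2l1 (NRF1), the transcription factor that raises subunit genes when proteasome activity drops, had 1182, 1049 and 1135 CPM in V1 to V3 and 416, 414.4 and 421.2 CPM in T4 to T6 and was a DEG (-1.43, SE 0.0616, edgeR adjusted p = 1.36e-11). Ddi2, the protease that activates it, was the only gene of the list that rose, with 81.9, 70.4 and 79 CPM in V1 to V3 and 98.3, 93.2 and 93.8 CPM in T4 to T6 and a log2 fold change of 0.30 (SE 0.0656). Ngly1, which deglycosylates the factor, fell by 0.20 on the log2 scale. Of 11 assembly and proteasome-bound factors 10 were tested and 6 were lower, among them the ubiquitin receptor Adrm1 at -0.75. The subunit Sem1 did not pass the test (-0.17). Of 7 genes for ubiquitin and its activating enzymes 5 were lower, among them Ubb at -0.73 and Uba1 at -0.82. Ubd (FAT10), an interferon-induced modifier that targets proteins to the proteasome, had 4.42, 4.39 and 5.21 CPM in V1 to V3 and 0 counts in T4 to T6. Against a floor of 3 counts per library it was at least 27.7-fold lower. Of 6 genes for ubiquitin shuttles and the segregase Vcp, 3 were lower and none passed 2-fold, with Vcp at -0.48. With so few genes, that count is not far from the share of all genes.

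Genes for the steps that follow the immunoproteasome were lower as well. All 9 genes for peptide transport and class I loading were lower, and 7 were DEGs. Among all genes tested, 33.8% were lower and 10.1% were DEGs that were lower. Tap1, the peptide transporter, had 629.2, 614.3 and 596.9 CPM in the HO + Vehicle libraries against 18.4, 20.3 and 18.5 CPM in those given β-SITO, with a log2 fold change of -5.01 (SE 0.0713, edgeR adjusted p = 5.89e-17). Tap2, its partner, had 184.4, 177.4 and 173.4 CPM in V1 to V3 and 15.3, 15.7 and 16.3 CPM in T4 to T6. The log2 fold change of Tap1 was below those of all 5 immuno genes, and that of Tap2, -3.50, lay between those of Psme2 and Psmb10. The loading factors Tapbp (-3.14) and Tapbpl (-3.61), the trimming peptidase Erap1 (-2.03), the class I light chain B2m (-2.14) and the chaperone Canx (-1.05) were the other DEGs. Of the 10 interferon signalling genes all were lower and 6 were DEGs. Nlrc5, the transactivator of class I genes, had 154.2, 146.4 and 150 CPM in V1 to V3 and 4.57, 3.77 and 3.28 CPM in T4 to T6 and a log2 fold change of -5.27 (SE 0.0931, edgeR adjusted p = 3.66e-16). Stat2 (-3.43), Irf1 (-3.51), Jak2 (-3.47) and Irf9 (-1.67) were also among them, while the receptor chains Ifngr1 and Ifngr2 fell by 0.48 and 0.79 on the log2 scale.

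The neighbours of the immuno genes within 25 kb were read from the coordinates in the deposited table (GRCm39 per the submitters' notes). Psmb9 (chr17:34400961-34406738) and Psmb8 (chr17:34416695-34420428) sit in the MHC class II region with Tap1 (chr17:34406527-34416199) and Tap2 between and beside them. The span of Psmb9 overlaps that of Tap1 on the opposite strand, and as the strand setting of the counting was not given, reads in the overlap cannot be assigned to either. Around Psmb10 (chr8:106662367-106665076), Pskh1 rose with 27.5, 34.5 and 28.6 CPM in V1 to V3 and 42.6, 43.8 and 48 CPM in T4 to T6, while Slc12a4 fell with 180.1, 170.4 and 164.6 CPM in V1 to V3 and 91.7, 99.9 and 97.7 CPM in T4 to T6. Their log2 fold changes were 0.57 and -0.83. Ctrl (-2.26, SE 0.478) and Lcat (-1.40, SE 0.265), which lie nearer to Psmb10, were DEGs at low levels, at or below 2.29 CPM in all libraries. That of Psmb10 was -4.01.

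Psme1 (chr14:55815580-55818986) and Psme2 (chr14:55824898-55828570) are neighbours on chromosome 14, with Emc9 between them and Irf9 and Rnf31 close by. Emc9, which overlaps Psme1 on the other strand, rose with 4.23, 4.7 and 3.04 CPM in V1 to V3 and 7.91, 6.58 and 8.22 CPM in T4 to T6 and a log2 fold change of 0.93 (SE 0.168). Rnf31 fell with 75.5, 71.3 and 65.9 CPM in V1 to V3 and 23.1, 24 and 25.3 CPM in T4 to T6, and Irf9 with 128.3, 120.7 and 118 CPM in V1 to V3 and 39.4, 41.5 and 34.6 CPM in T4 to T6. In all, 12 neighbours of the immuno genes were tested, of which 9 were lower, 6 of them DEGs, and 2 were higher. H2-DMb1 (-0.64) and Dcaf11 (-0.39) were among the 9, and Fitm1 (-0.06) did not pass the test. Around Psmb5, Psmb6 and Psmb7, 6 of 10 neighbours were tested, 2 were lower (Acin1 at -0.14 and Nek6 at -0.83) and 0 were DEGs. Among all genes tested, 33.8% were lower, 33.0% were higher and 10.1% were DEGs that were lower. With 6 genes tested, the counts around Psmb5, Psmb6 and Psmb7 are near these shares. Nek6 (mean of 1510 counts) overlaps Psmb7 (1332 counts) on the opposite strand, and the log2 fold change of Psmb7 was -0.79. As the strand setting was not given, reads in this overlap cannot be assigned to either. The ratio of Psmb10 to Psmb7 carries the same limit.

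**Figure D5:**
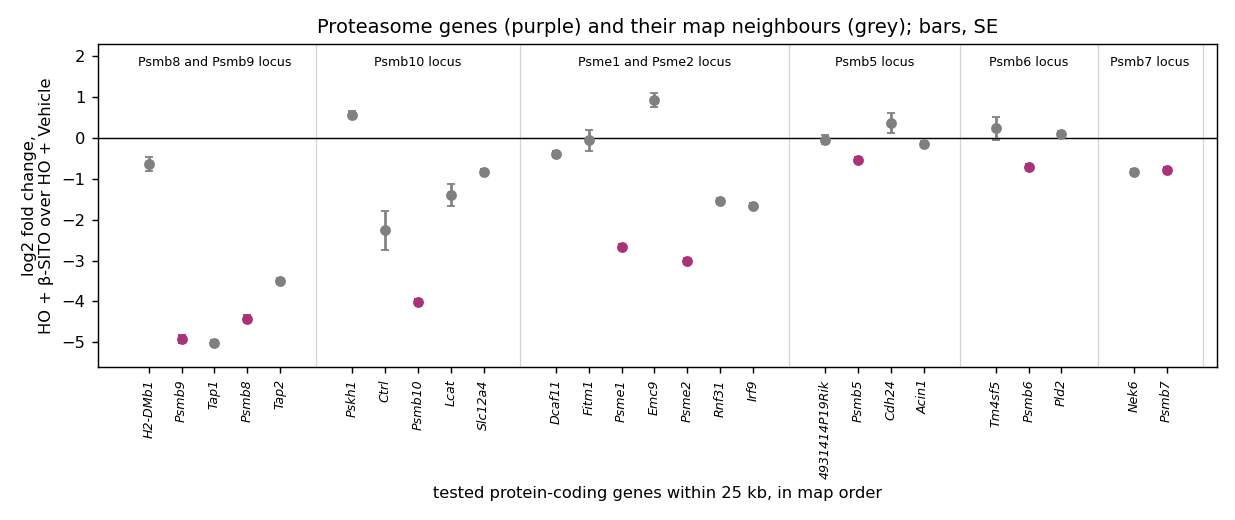
Log2 fold change (y axis, HO + β-SITO over HO + Vehicle, bars for the SE) of proteasome genes (purple) and the tested protein-coding genes within 25 kb of them (grey), in map order along the x axis. Tap1 and Tap2 lie at -5.01 and -3.50 beside Psmb8 and Psmb9, whereas Pskh1 and Emc9 lie above zero beside Psmb10, Psme1 and Psme2.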

How the data were processed

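RNA-seq was performed on 6 libraries of hypoxic NMCMs, 3 of each group, with groups taken from the sample labels. Reads were paired-end (150 bp). The paper names an ABclonal library kit and the labels an Illumina one. The authors deposited raw counts per gene for all libraries, without normalization. Per the submitters' processing notes FastQC, HISAT2 and featureCounts were used with GRCm39, and versions, strand and counting options were not given in the sources used here. Totals were 16694734 to 17082129 counts in V1 to V3 and 16962152 to 18460522 in T4 to T6. Library names in the HO + β-SITO group carry a suffix that the others lack, so a separate preparation, if any, cannot be told apart from the treatment. No 2 libraries held identical values. T5 and T6 were the closest pair within a group, with a chi-square per degree of freedom of 1.9 between their counts. It was 4.42 to 8.4 for the other pairs within a group.

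The counts were analysed in R 4.3.3 with edgeR 4.0.16 (filterByExpr, TMM, glmQLFit and glmQLFTest with group as only term) with Benjamini-Hochberg adjustment over 14799 genes, at an adjusted p under 0.05. TMM factors were 0.945 to 0.956 and 1.05 to 1.06, and the biological coefficient of variation was 6.52%. A pseudocount of 0.5 was used in ratios of counts. Lengths per kilobase came from the principal transcripts of GENCODE vM21, matched by gene ID for 51 members. Alternatives were DESeq2 1.42.0, limma-voom (limma 3.58.1), glmTreat, other normalizations and filters, and the removal of each library.

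Every member is accounted for. Values in every library are given for the immuno genes and their counterparts, DEGs and the members with the largest and smallest change of each group. Values of Pomp, Nfe2l1, Ubd, Tap1, Tap2, Nlrc5 and neighbours were added, with Ddi2, Ngly1, Adrm1, Sem1, Ubb, Uba1, Vcp, Ifngr1 and Ifngr2 chosen after their values were seen. Some genes of these lists are not reported here. The members and all lists were chosen with earlier results of these data known.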

Additional observations from a re-analysis of the deposited data

How the results depend on the processing

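The 5 immuno genes were lower and DEGs under every alternative run (DESeq2, limma-voom, glmTreat, other normalizations and filters, and each library left out). Of 428 alternative values of the named proteasome genes, glmTreat not among them, 410 kept their direction and their call at an adjusted p under 0.05. The count of DEGs among all members, 16 as reported, was 13 with glmTreat, library size alone and upper quartile factors. It was 15 to 17 in the other runs. Psmb2, the only DEG of the β subunits, stood at -0.92 with library size alone and with upper quartile factors. The count of DEGs among the 17 subunits of the 19S, 2 as reported, was 1 with DESeq2, RLE factors, no filter on low counts and a CPM of at least 1 in 3 libraries, 0 with glmTreat, library size alone and upper quartile factors, and 1 to 2 with a library left out. Library size alone shifted the median of all genes by 0.15 and upper quartile factors by 0.14 on the log2 scale. With library size alone, the summed log2 ratios were -3.23 for the immuno genes (-3.28 with counts per length), -0.80 for the constitutive 20S and -0.58 for the 19S, against -3.38, -0.94 and -0.73, and 4 in place of 1 of the genes around the proteasome were higher. Psmd8 lost its call with both of these normalizations (-0.03 and -0.04). Signs turned, without a call, with library size alone and with upper quartile factors for Psme4 (0.01 and 0.00), Psmg2 (0.12 and 0.11), Psma8 (0.13 and 0.13) and Psmc3ip (0.03 and 0.02), and with a library left out for Psmg2 (-0.04 to 0.01), Psma8 (-0.12 to 0.11) and Psmc3ip (-0.23 to 0.07). With a library left out, the log2 difference of the ratio was -3.96 to -3.86 for Psmb8 to Psmb5, -4.30 to -4.14 for Psmb9 to Psmb6 and -3.27 to -3.12 for Psmb10 to Psmb7. No paired analysis was possible because the groups share no replicate number. Depth limits Psma8, Psmc3ip, Psmg3 and Ubd, which had few counts.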

Other observations

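Within the HO + Vehicle group the summed levels of the core and the cap differed in spread over the 3 libraries, which was not tested. V2 had the highest summed level of the α subunits (1246 CPM), the β subunits (1180 CPM) and the immuno genes (1612 CPM), while the 19S subunits lay between 3111 and 3174 CPM in V1 to V3. Within the 19S, the base sum was lowest in V2 (825.4 CPM, against 872.2 in V1 and 867.6 in V3). The lid sum was highest in V2 (1238 CPM, against 1201 in V1 and 1215 in V3). These differences were small and not tested, and Psmd2 alone held 453.7 to 497.5 CPM of the base. In the HO + β-SITO group the immuno genes lay between 138.8 and 143.8 CPM.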
